A study of Mus musculus with 23 samples.

Results

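The comparison described here is the step from young to mature joints in the CBA mouse, an inbred strain without the spontaneous joint disease of Str/ort mice. Its members are the 4 arrays labelled CBA at 18 weeks and the 4 labelled CBA at 8 weeks, 8 of 23 arrays in all. Every sample was articular cartilage of male mice, and the protocol gives the ages as 8 to 10, 18 to 20 and 40 to 42 weeks. Total RNA was hybridised to Affymetrix mouse gene arrays, 1 array per sample, and each value is a log2 signal normalised by RMA, so that a difference of 1 is 2-fold. The CBA mice came from a commercial breeder, were untreated and carried no transgene, and were kept on a light and dark cycle with standard diet. The joint sampled, the time of day of collection and the number of mice per array are not given. The submitters call the samples biological replicates. For reference, the CBA arrays at 40 weeks (4) and the Str/ort arrays at 8 weeks (3) and 18 weeks (4) are used as well.

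Articular cartilage is made by chondrocytes, which secrete a network of type II collagen filled with aggrecan, a proteoglycan whose sulfated sugar chains hold water. Its surface layer makes lubricin, its deeper layers pass into calcified cartilage, where hypertrophic chondrocytes make type X collagen and the collagenase Mmp13, and beneath lies bone with its marrow. Between weaning and adulthood the joint surface stops growing, the zones become distinct and the secondary centre of bone below it is remodelled.

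The labelled tissue was checked against its markers. Across the 8 arrays Col2a1 lay between 9.68 and 10.51, Acan between 8.91 and 10.94 and the lubricin gene Prg4 between 13.18 and 13.51, while the median over all genes lay between 8.28 and 8.36. RNA of other tissues was measured in the same samples. The mean of 44 skeletal muscle genes was 9.70 to 11.14 at 8 weeks and 9.12 to 11.18 at 18 weeks, and that of 20 erythroid genes 10.80 to 11.56 and 11.59 to 11.91. In such bulk samples fewer cells of a type and less RNA per cell cannot be told apart. CBA 8 weeks replicate 1 stood apart from its group: its genes deviated from the mean of the other 3 arrays with an SD of 0.454, against 0.146 to 0.260 for the other 7 arrays of the comparison. It also had the lowest erythroid mean (10.80) and, among the 8-week arrays, the highest muscle mean (11.14). The counts, the list medians and most gene differences are therefore given with and without it.

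No gene of 19937 passed the test between 18 and 8 weeks, a share of 0%, in a linear model fitted with limma to all 23 arrays (adjusted p under 0.05 by the method of Benjamini and Hochberg). The lowest adjusted p was 0.0887, and 3507 genes (17.6%) had an unadjusted p under 0.05. Without CBA 8 weeks replicate 1, again 0 genes passed, the lowest adjusted p was 0.206 and 1377 genes (6.91%) had an unadjusted p under 0.05. Differences below are log2 values at 18 minus 8 weeks with their standard error (SE), and none of them passed unless stated. At the level of single arrays, 1969 genes (9.88%) had all 4 values at 18 weeks above all 4 at 8 weeks and 405 (2.03%) had them all below. Without the doubted array these counts were 2211 (11.1%) and 553 (2.77%). Leaving out an array can only keep or raise such a count, so genes that stay or become free of overlap in that version are no check. Of the genes without overlap, 12 were higher by more than 1 on the log2 scale and 0 were lower by as much.

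Cilp, Ecrg4, Anxa8 and Smoc2 were among the 12 genes without overlap that were more than 2-fold higher at 18 weeks. Differences of like size in muscle genes, such as Casq1 (-1.39) and Trdn (-1.26), came with overlapping arrays. Cilp encodes a matrix protein of the middle zone of cartilage. Cilp read 9.82, 10.04, 10.13 and 11.00 on the 8-week arrays (replicates 1 to 4) and 11.86, 11.75, 11.34 and 11.74 on the 18-week arrays. Every mature sample was above every young one, and the nearest young value was replicate 4. The difference was 1.42 ± 0.38 (SE, n = 4 and 4; 2.68-fold, limma adjusted p = 0.146) and 1.28 ± 0.41 without CBA 8 weeks replicate 1 (adjusted p = 0.492).

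Ecrg4 encodes a secreted peptide precursor known in articular chondrocytes. Its signal was 10.86, 10.81, 10.77 and 11.39 at 8 weeks and 12.51, 12.74, 12.00 and 12.19 at 18 weeks. Again replicate 4 was the highest of the young arrays, and a gap separated it from the lowest mature one. The difference was 1.40 ± 0.30 (2.64-fold, limma adjusted p = 0.109) with all arrays and 1.37 ± 0.33 (adjusted p = 0.311) without the doubted one. Anxa8, an annexin that binds membranes in the presence of calcium, read 8.39, 8.48, 9.07 and 9.36 at 8 weeks against 10.44, 10.42, 9.64 and 10.06 at 18 weeks. It differed by 1.32 ± 0.28 (limma adjusted p = 0.109), and by 1.17 ± 0.30 without CBA 8 weeks replicate 1. Smoc2, a calcium-binding protein of the matrix, read 9.18, 9.06, 8.55 and 9.66 and then 10.57, 10.47, 10.02 and 10.38. Its difference was 1.25 ± 0.34 (limma adjusted p = 0.156), and 1.27 ± 0.38 without that array, so the estimate did not rest on it.

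**Figure D1:**
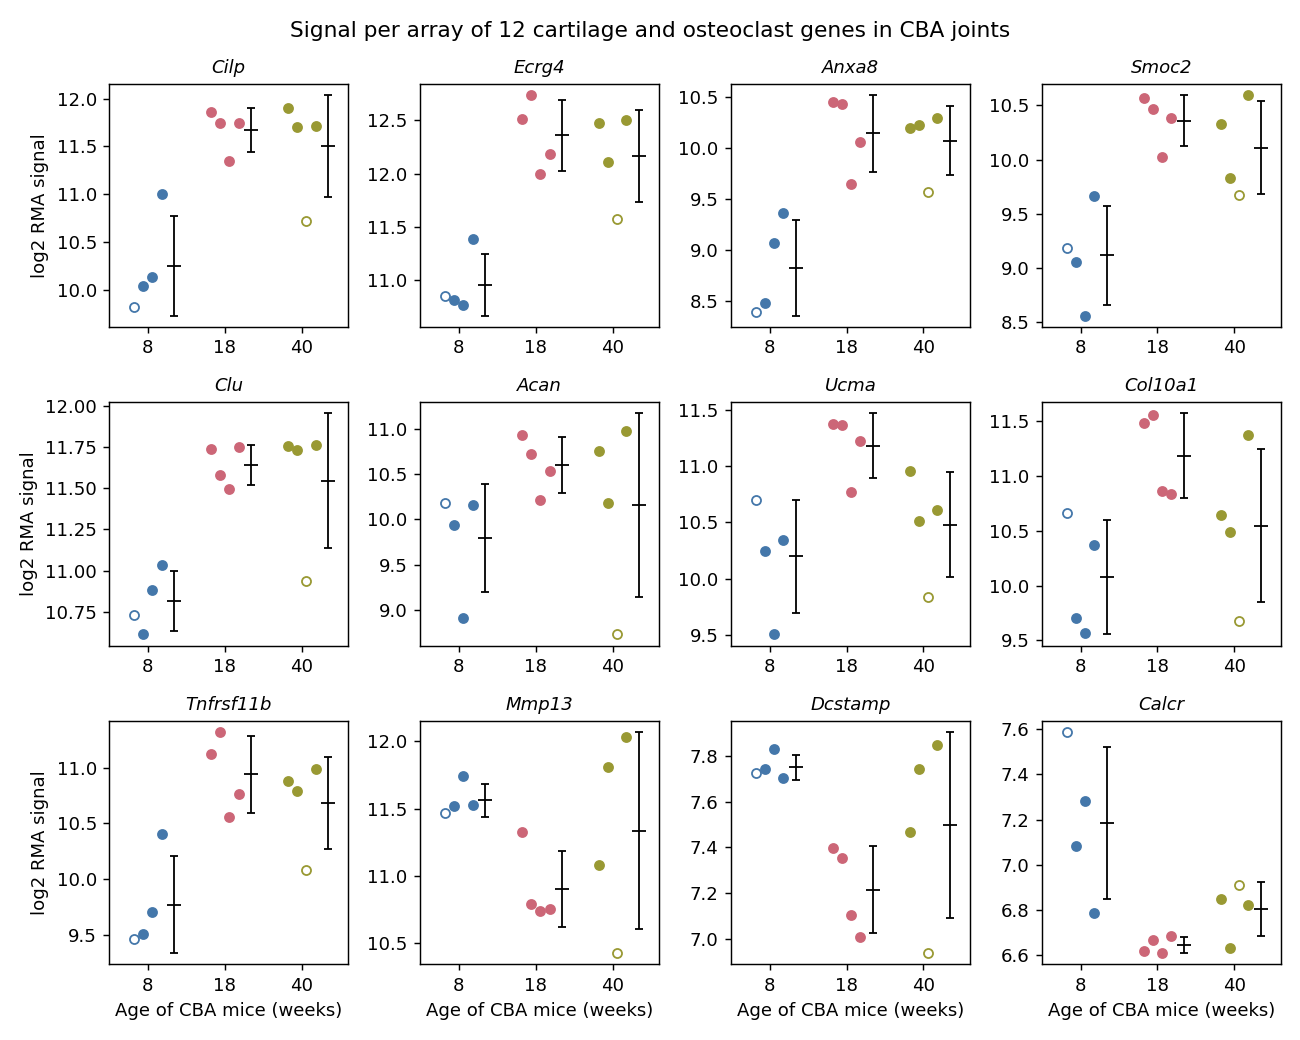
Log2 RMA signal (vertical axes) of 12 genes on each CBA array at 8, 18 and 40 weeks (horizontal axes). Points are arrays, open points mark replicate 1 at 8 weeks and replicate 3 at 40 weeks, and bars are the mean and SD of all arrays of an age; the 8 and 18 week points do not overlap in any panel, Mmp13, Dcstamp and Calcr being lower and the other 9 genes higher at 18 weeks.

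To show what lies upstream of the genes with the clearest cartilage roles, the 250 bases before the annotated start of Cilp, Ecrg4, Col10a1 and Mmp13 are printed below from RefSeq (GRCm38.p6), each 5′ to 3′ on the strand of the gene. Cilp lies on chr9:65264930-65265179 (+), Ecrg4 on chr1:43730352-43730601 (+), Col10a1 on chr10:34389731-34389980 (+) and Mmp13 on chr9:7272264-7272513 (+). The AP-1 motif is its own reverse complement. Capitals mark letters found by a search of both strands for an AP-1 motif (TGANTCA), a RUNX motif (ACCACA), a SOX motif (ACAAAG) and a TATA motif (TATAAA).
Cilp: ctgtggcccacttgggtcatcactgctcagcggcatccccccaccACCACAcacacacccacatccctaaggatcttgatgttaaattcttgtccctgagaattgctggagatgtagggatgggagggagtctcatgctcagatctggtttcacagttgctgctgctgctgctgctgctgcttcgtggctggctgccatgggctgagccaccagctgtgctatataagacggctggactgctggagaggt
Ecrg4: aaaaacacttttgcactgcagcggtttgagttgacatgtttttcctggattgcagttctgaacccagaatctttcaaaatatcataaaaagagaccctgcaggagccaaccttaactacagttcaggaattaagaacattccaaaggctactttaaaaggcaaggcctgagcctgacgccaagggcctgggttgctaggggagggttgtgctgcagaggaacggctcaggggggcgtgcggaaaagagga
Col10a1: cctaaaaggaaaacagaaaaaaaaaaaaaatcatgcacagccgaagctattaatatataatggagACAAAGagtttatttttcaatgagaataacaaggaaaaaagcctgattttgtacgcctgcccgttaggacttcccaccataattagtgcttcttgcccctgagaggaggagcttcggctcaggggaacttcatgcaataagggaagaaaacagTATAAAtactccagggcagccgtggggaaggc
Mmp13: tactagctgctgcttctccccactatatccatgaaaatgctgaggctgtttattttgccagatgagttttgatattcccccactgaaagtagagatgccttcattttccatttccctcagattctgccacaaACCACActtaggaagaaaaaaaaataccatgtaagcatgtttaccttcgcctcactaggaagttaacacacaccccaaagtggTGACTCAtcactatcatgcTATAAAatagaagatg
In these windows the Mmp13 promoter held TGANTCA at 35 to 29 bases before the start, ACCACA at 118 to 113 and TATAAA at 16 to 11. That of Col10a1 held ACAAAG at 185 to 180 and TATAAA at 32 to 27, and that of Cilp ACCACA at 205 to 200. Ecrg4 held none of these letters in this window. Among the 15562 measured genes with a promoter in the table, 6.09% held the AP-1 letters, 11.9% the RUNX letters, 14.5% the SOX letters and 11.2% the TATA letters. No 2 of these motifs overlap in the capitals printed. A match in letters is a description and not a binding site.

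Among the 14 superficial zone genes, 12 were above 0 in the difference and 2 (Cilp and Clu) had higher arrays without overlap (14.3%, beside 9.88% of all genes). Cilp is in the matrix list too and was described above as a gene of the middle zone, so this count rests in part on another zone. The list's median was 0.21, and 0.13 without CBA 8 weeks replicate 1, beside -0.01 and 0.01 over all genes. With the dimmest 40% of genes left out, the median over all genes kept was 0.10 and that of this list 0.21. The medians of the lists below are to be read beside that 0.10 as well. Clu encodes clusterin, a secreted chaperone. It read 10.73, 10.61, 10.88 and 11.03 at 8 weeks and 11.74, 11.58, 11.50 and 11.75 at 18 weeks, a difference of 0.83 ± 0.23 (limma adjusted p = 0.157), or 0.80 ± 0.26 without the doubted array. Prg4, the defining gene of the surface layer, read 13.37, 13.34, 13.51 and 13.18 and then 13.37, 13.46, 13.37 and 13.48. Its arrays overlapped and it differed by 0.07 ± 0.10 (limma adjusted p = 0.69), or 0.08 ± 0.11 without that array.

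Of 26 cartilage matrix genes, 15 were above and 11 below 0, and only Cilp, Ucma and Acan had arrays without overlap. These 3 are 11.5% of the list, near the 9.88% of all genes that were higher without overlap. The median difference was 0.07, and 0.13 without the doubted array. Acan, the core protein of aggrecan, read 10.18, 9.94, 8.91 and 10.16 at 8 weeks and 10.94, 10.73, 10.22 and 10.53 at 18 weeks. The low young value is that of replicate 3, and the other 3 young values lie just under the lowest mature one. Its difference was 0.81 ± 0.47 (limma adjusted p = 0.35), and 0.94 ± 0.52 without CBA 8 weeks replicate 1. Ucma encodes a small secreted protein of resting and upper cartilage. Its values were 10.70, 10.25, 9.51 and 10.35 and then 11.38, 11.37, 10.77 and 11.22, a difference of 0.98 ± 0.39 (limma adjusted p = 0.236) and 1.15 ± 0.43 without that array.

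Other structural genes of the tissue showed smaller differences with overlapping arrays. Col2a1, the main collagen of cartilage, read 10.39, 10.51, 9.68 and 10.30 at 8 weeks and 10.37, 9.89, 9.77 and 10.34 at 18 weeks. It differed by -0.13 ± 0.26 (limma adjusted p = 0.789), or by -0.07 ± 0.29 without CBA 8 weeks replicate 1, and with weights estimated for each array by 0.07, the opposite sign. The difference of Comp, a linker of collagen fibres, was 0.58 ± 0.33 (0.47 ± 0.37 without the doubted array). That of Hapln1, the link protein of aggrecan, was 0.41 ± 0.37 (0.57 ± 0.41 without it). Chad, which binds chondrocytes to the matrix, gave 0.39 ± 0.22 (0.47 ± 0.24 without it). Sox9, the transcription factor that defines chondrocytes, gave 0.42 ± 0.25 (limma adjusted p = 0.361) and, without the doubted array, 0.53 ± 0.27 (0.727). In each of these genes the difference was smaller than 2 SE. Replicate 3 at 8 weeks had the lowest mean over the cartilage matrix list, 9.20, against 9.61 to 9.80 on the other young arrays and 9.52 to 9.92 at 18 weeks. The same array carried the lowest muscle mean of its group (9.70), and the part of tissue makeup in the spread of these genes was not tested.

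Of 31 genes for enzymes that build and sulfate proteoglycan chains, 28 were above 0 and 3 below, and 7 had arrays without overlap, all higher (22.6% of the list, beside 9.88% of all genes). The 7 were Xylt1, B4galt7, B3gat3, Chsy1, Chst11, Chst12 and Slc35d1. The list's median was 0.17, and 0.11 without the doubted array. Xylt1 attaches the first sugar of a chain. It read 10.32, 10.39, 10.39 and 10.63 at 8 weeks and 10.96, 10.94, 10.78 and 10.88 at 18 weeks, a difference of 0.45 ± 0.15 (limma adjusted p = 0.202), or 0.42 ± 0.17 without the doubted array. Chst11, which sulfates chondroitin, read 8.96, 9.31, 9.37 and 9.51 and then 9.92, 9.87, 9.66 and 9.66. The difference was 0.49 ± 0.19 with all arrays and 0.38 ± 0.20 without CBA 8 weeks replicate 1, the lowest young value. Chst12 likewise differed by 0.48 ± 0.20 with that array and by 0.33 ± 0.21 without it. The list's mean per array was 8.91 to 9.15 at 8 weeks and 9.15 to 9.33 at 18 weeks, so that the arrays of the ages met but did not cross.

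Of 26 fibrillar and other collagen genes 20 were below 0, with a median of -0.12 and, without the doubted array, -0.08. Only Fbn2 had arrays without overlap (3.85% of the list, beside 2.03% of all genes lower). Fbn2 encodes fibrillin 2, a microfibril protein of growing tissue, and was among the dimmest 40% of genes. It read 7.59, 7.44, 7.50 and 7.94 at 8 weeks and 7.41, 7.16, 7.11 and 7.20 at 18 weeks. It was lower by 0.40 ± 0.12 on the log2 scale (difference of -0.40, limma adjusted p = 0.192; -0.41 ± 0.13 without the doubted array), and the lowest young value exceeded the highest mature one by little. Col1a1, the collagen of bone and tendon, differed by -0.27 ± 0.24 and Col1a2 by -0.33 ± 0.23, both with overlapping arrays. Without the doubted array they were -0.32 ± 0.26 and -0.37 ± 0.26. Among 28 genes that process and crosslink collagen 19 were above 0 and 3 (Colgalt2, Plod3 and P3h2) had higher arrays without overlap (10.7%, near the share of all genes). Colgalt2, a galactosyltransferase that acts on collagen, read 8.25, 8.30, 8.14 and 8.33 at 8 weeks against 9.72, 9.60, 9.06 and 9.18 at 18 weeks. The young values spanned less than the gap to the lowest mature one, and the difference was 1.14 ± 0.35 with all arrays (2.20-fold, limma adjusted p = 0.192) and 1.14 ± 0.39 without the doubted one.

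The hypertrophy and mineralisation list split, with 7 of its 14 genes above and 7 below 0 and a median of 0.00. Col10a1 and Mmp13, both made by hypertrophic chondrocytes, differed in opposite directions. Col10a1 read 10.66, 9.71, 9.57 and 10.37 at 8 weeks and 11.48, 11.56, 10.86 and 10.84 at 18 weeks. The lowest mature value stood just above the highest young one, which was CBA 8 weeks replicate 1. The difference was 1.11 ± 0.37 (2.15-fold, limma adjusted p = 0.197), and 1.30 ± 0.40 without that array (adjusted p = 0.446). Mmp13 read 11.46, 11.52, 11.74 and 11.52 at 8 weeks and 11.32, 10.79, 10.73 and 10.75 at 18 weeks. Replicate 1 at 18 weeks lay near the young values and the other 3 well below. The difference was -0.66 ± 0.24 (limma adjusted p = 0.217) and -0.69 ± 0.27 without the doubted array. Slc20a1, a phosphate transporter, was higher without overlap by 0.54 (0.38 without the doubted array). Ibsp, a sialoprotein of bone and calcified cartilage, differed by -0.03 ± 0.19 (-0.10 ± 0.21 without it). Dmp1, a phosphoprotein of osteocytes, read 9.80, 10.25, 10.16 and 10.49 and then 9.64, 9.99, 9.11 and 9.32. Without CBA 8 weeks replicate 1 its arrays no longer overlapped, which is no check because leaving out an array cannot add overlap. The difference was -0.79 ± 0.35 without that array against -0.66 ± 0.32 with it.

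Among 26 proteases of the matrix and their inhibitors, 12 were above and 14 below 0, the median was -0.01 in both versions, and the genes without overlap were Mmp9 (0.34), Mmp16 (-0.42) and Adamts9 (-0.45). Without the doubted array these were 0.27, -0.42 and -0.51. The genes without overlap were 3.85% of the list higher and 7.69% lower, beside 9.88% and 2.03% of all genes. Adamts4, an aggrecanase, differed by -0.17 ± 0.17, and by -0.05 ± 0.17 without it. Adamts5, the main aggrecanase of mouse cartilage, read 9.24, 10.00, 10.07 and 10.07 at 8 weeks and 9.96, 10.11, 9.82 and 9.96 at 18 weeks. Its only low value was CBA 8 weeks replicate 1. It differed by 0.12 ± 0.18 with that array and by -0.08 ± 0.16 without it, so its direction rests on 1 array, and quantile normalisation turned it too, to -0.02. Mmp3, a stromelysin, differed by 0.44 ± 0.35, and by 0.19 without replicate 2 at 18 weeks, which read 8.84 against 7.74 to 7.99 on the other mature arrays. Without the doubted array it differed by 0.49 ± 0.39. Timp3, an inhibitor of these enzymes, differed by 0.35 ± 0.18, or 0.34 ± 0.20 without it. Htra1, a serine protease of cartilage, was 0.73 ± 0.25 higher with all arrays and 0.56 ± 0.26 without the doubted one, which read 9.08 against 9.71 to 9.80 in the rest of its group.

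Genes around bone resorption differed in both directions. Tnfrsf11b encodes osteoprotegerin, the decoy receptor that blocks osteoclast formation by binding RANKL. It read 9.46, 9.50, 9.71 and 10.40 at 8 weeks and 11.12, 11.32, 10.56 and 10.76 at 18 weeks. All mature arrays were above all young ones, and the difference was 1.17 ± 0.31 (2.25-fold, limma adjusted p = 0.146), or 1.07 ± 0.34 without CBA 8 weeks replicate 1. Tnfsf11, which encodes RANKL itself, differed by -0.09 ± 0.12 with overlapping arrays (-0.05 ± 0.13 without that array). Dcstamp, needed for the fusion of osteoclast precursors, read 7.72, 7.74, 7.83 and 7.70 and then 7.40, 7.35, 7.11 and 7.01. The young arrays lay within a narrow band and all mature ones below it, a difference of -0.53 ± 0.17 (limma adjusted p = 0.192), or -0.54 ± 0.18 without the doubted array. Calcr, the calcitonin receptor of osteoclasts, was among the dimmest 40% of genes. It read 7.59, 7.08, 7.28 and 6.79 at 8 weeks and 6.62, 6.67, 6.61 and 6.68 at 18 weeks. The difference was -0.54 ± 0.13 (limma adjusted p = 0.117), and -0.41 ± 0.11 without the doubted array, which held the highest value. Oscar, an osteoclast receptor for collagen, differed by -0.65 ± 0.24, and without that array by -0.44 ± 0.23. The abundant osteoclast genes Acp5 (-0.13 ± 0.26) and Ctsk (-0.39 ± 0.27) had overlapping arrays, and without that array were -0.10 ± 0.29 and -0.31 ± 0.30. Over the 17 osteoclast genes the median was 0.09, but -0.01 without CBA 8 weeks replicate 1 and -0.05 after quantile normalisation, and 2 genes without overlap were higher and 2 lower (11.8% each way, beside 9.88% and 2.03% of all genes). Mmp9 and Nfatc1 were the higher ones.

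**Figure D2:**
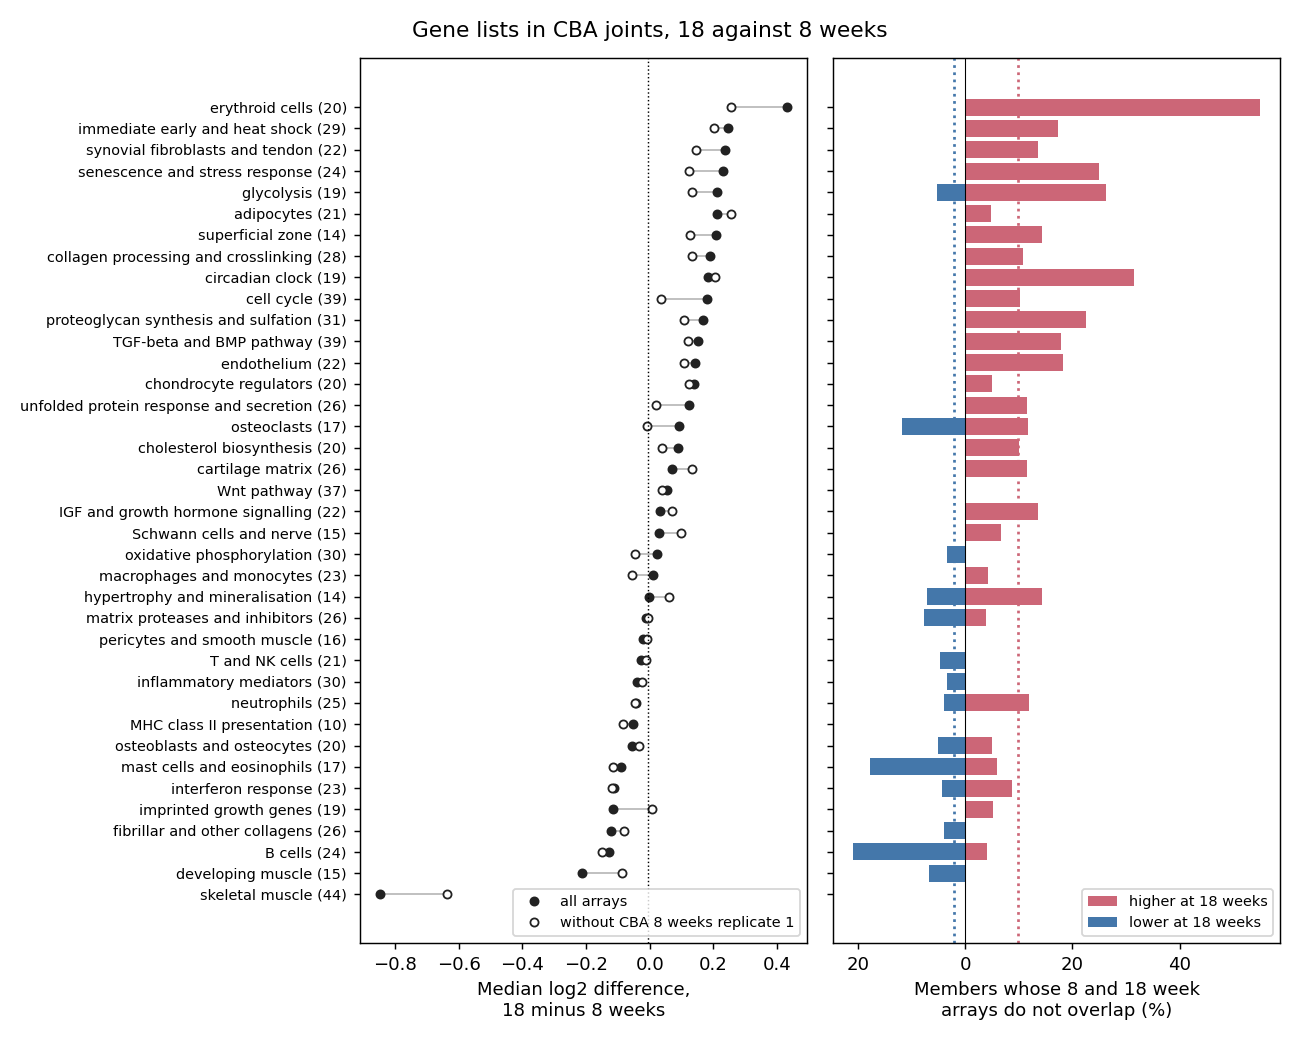
Left, the median log2 difference between 18 and 8 weeks in 38 gene lists (number of genes in brackets), with all arrays (filled) and without CBA 8 weeks replicate 1 (open); the dotted line is the median over all genes. Right, the percentage of each list whose arrays did not overlap, higher (to the right) or lower (to the left), with dotted lines at 9.88% and 2.03% of all genes; erythroid genes have the longest bar to the right and B cell genes the longest to the left.

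Among the growth factor lists, TGF-beta and BMP genes were most often above 0. Of 39 TGF-beta and BMP genes 30 were above 0, 7 had higher arrays without overlap (17.9%, beside 9.88% of all genes) and 0 lower, and the median was 0.15 (0.12 without the doubted array). The 7 were Tgfb1, Tgfbr2, Tgfbr3, Acvrl1, Eng, Tgfbi and Ccn2. Ccn2, a matricellular target of the pathway, read 11.70, 12.12, 12.26 and 12.35 at 8 weeks and 12.68, 13.07, 12.46 and 12.89 at 18 weeks, a difference of 0.67 ± 0.25 and without the doubted array 0.53 ± 0.26. Acvrl1 and Eng are receptors of blood vessels as well, and 4 of the 22 endothelial genes (18.2%) were higher without overlap. Of 37 Wnt genes 21 were above and 16 below 0, 0 had arrays without overlap, and the median was 0.05 (0.04 without the doubted array). The largest of them was Frzb, a secreted Wnt antagonist of articular cartilage, at 8.87, 8.66, 8.78 and 9.85 and then 10.35, 10.28, 9.57 and 9.85. Replicate 4 at 8 weeks overlapped the mature arrays, and the difference was 0.97 ± 0.36, or 0.92 ± 0.40 without the doubted array. In the IGF list of 22 genes 13 were above and 9 below 0, with a median of 0.03 (0.07 without the doubted array). Igf1r, Igfbp7 and Stc2 (13.6%, beside 9.88% of all genes) were higher without overlap. Stc2 differed by 0.59 ± 0.20 with all arrays and by 0.67 ± 0.21 without the doubted one. Of 19 imprinted growth genes 9 were above and 10 below 0, with a median of -0.12 (0.01 without that array).

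No gene of the rapid response or clock lists passed the test in either version. Of 29 immediate early and heat shock genes 26 were above 0 and 5 had higher arrays without overlap (Dusp1, Fosl2, Jund, Ier2 and Btg2; 17.2%, beside 9.88% of all genes). The median was 0.25, and 0.20 without the doubted array. Dusp1 encodes a phosphatase that shuts off MAP kinases. It read 10.32, 10.65, 10.72 and 11.32 at 8 weeks and 11.49, 11.87, 11.49 and 11.84 at 18 weeks. The difference was 0.92 ± 0.20 (1.89-fold, limma adjusted p = 0.109), and 0.78 ± 0.20 without CBA 8 weeks replicate 1, its lowest array. Fos, with overlapping arrays, differed by 0.55 ± 0.24, or 0.47 ± 0.27 without that array. Fosl2 read 8.78, 9.11, 9.16 and 9.10 and then 9.53, 9.63, 9.53 and 9.59, a difference of 0.53 ± 0.14 (limma adjusted p = 0.141), or 0.45 ± 0.14 without it.

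Of 19 clock genes 17 were above 0, and 6 had higher arrays without overlap and 0 lower (31.6% of the list, beside 9.88% higher and 2.03% lower over all genes). The median was 0.18, and 0.20 without the doubted array. The 6 were Per2, Per3, Cry2, Nfil3, Ciart and Csnk1e. Dbp, a direct output of the clock, read 8.95, 9.003, 9.004 and 9.27 and then 9.58, 9.72, 9.20 and 9.66, so that 1 mature array lay below 1 young one. It differed by 0.49 ± 0.12 (limma adjusted p = 0.139), or 0.45 ± 0.13 without the doubted array. Cry2, a repressor of the clock, differed by 0.44 ± 0.14 (0.32 ± 0.13 without it), and Per1 by 0.18 ± 0.17 (0.23 ± 0.19). The hour of collection, which sets the level of these genes, is not given, so age and hour cannot be told apart here. Of 24 senescence and stress genes 6 were higher without overlap (25% of the list, beside 9.88% of all genes). They were Gadd45b, Sesn2, Sod1, Txnip, Foxo1 and Foxo3. The list's median was 0.23, or 0.12 without the doubted array. In this list 21 genes were above 0 and 3 below. The cell cycle inhibitors Cdkn2a (0.95-fold) and Cdkn2b (0.97-fold) were among those below, with overlapping arrays. Of 19 glycolysis genes 5 were higher without overlap (26.3%, beside the same 9.88%) and Hk1 was lower, with a median of 0.21, or 0.13 without the doubted array. Slc2a1, a glucose carrier of chondrocytes, differed by 0.57 ± 0.18 (limma adjusted p = 0.193), or 0.47 ± 0.19 without it.

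The cell cycle list depended on the doubted array and on tissue covariates. With the muscle and erythroid means of each array as covariates its median was -0.12, although the erythroid means also differed with age. Without covariates, the median over 39 cell cycle genes was 0.18 with the doubted array and 0.04 without it. Of them 4 (10.3%, near the 9.88% of all genes) were higher without overlap. The doubted array's mean over the list was 10.66, against 11.03 to 11.20 on the other young arrays and 11.03 to 11.32 at 18 weeks. Mki67, a marker of dividing cells, differed by 0.08 ± 0.12 and by 0.03 ± 0.12. Aurkb, a mitotic kinase, read 11.20, 11.43, 11.81 and 11.65 and then 11.83, 12.06, 12.12 and 12.10. It was 0.50 ± 0.22 higher with the array and 0.39 ± 0.24 without it.

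Among the lists, the erythroid markers had the largest share of genes higher at 18 weeks without overlap, and the B cell markers the largest share lower. All 20 erythroid genes had a difference above 0, and 11 (Epb42, Slc4a1, Sptb, Ank1, Gata1, Cpox, Tspan33, Tal1, Epor, Slc25a37 and Ermap) had higher arrays without overlap (55%, beside 9.88% of all genes). The list's median was 0.43, and 0.25 without CBA 8 weeks replicate 1. The count without overlap, which could not fall in that version, stayed at 11. Per array the list's mean was 10.80, 11.43, 11.56 and 11.47 at 8 weeks and 11.63, 11.74, 11.91 and 11.59 at 18 weeks. The lowest mature value was thus barely above the highest young one, and CBA 8 weeks replicate 1 was the lowest array. Epor, the erythropoietin receptor, read 9.22, 10.29, 10.52 and 10.36 and then 10.66, 10.82, 11.04 and 10.69. Its difference was 0.71 ± 0.26 with all arrays and 0.42 ± 0.23 without the doubted one.

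Of 24 B cell genes 19 were below 0 and 5 above, and 5 had lower arrays without overlap (20.8% of the list, beside 2.03% of all genes). These lower genes were Ebf1, Vpreb1, Vpreb3, Igll1 and Rag2. Ebf1 is a transcription factor, and precursor B cells of the marrow use the others to build and test their first receptor. Other genes active in such cells, Vpreb2 (0.86-fold), Rag1 (0.90-fold), Dntt (0.90-fold) and Pax5 (1.09-fold), had overlapping arrays. Vpreb3 read 11.81, 11.91, 11.71 and 11.39 at 8 weeks and 11.18, 11.04, 11.23 and 11.22 at 18 weeks. The difference was -0.54 ± 0.19 (limma adjusted p = 0.206), and -0.50 ± 0.21 without the doubted array. Il7r, the receptor of a growth factor for lymphocyte precursors, is in the T and NK cell list and not in this one. It differed by -0.38 ± 0.18 (-0.31 ± 0.19 without that array), also without overlap. It was the only lower gene without overlap among the 21 of its list (4.76%, beside 2.03% of all genes), whose median was -0.03. Jchain, which joins antibodies of plasma cells, read 10.97, 11.42, 11.22 and 10.84 and then 11.98, 11.80, 12.18 and 11.61. It was the 1 gene of the B cell list with higher arrays without overlap, by 0.78 ± 0.21 (limma adjusted p = 0.156), and by 0.73 ± 0.24 without the doubted array. The mean over the B cell list overlapped between the ages, from 9.79 to 9.99 and from 9.70 to 9.97.

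Of 17 mast cell and eosinophil genes 13 were below 0, and 3 (Ear6, Prg3 and Il5ra) had lower arrays without overlap (17.6%, beside 2.03% of all genes); Gata2, a transcription factor of mast cells and other blood cells, was higher without overlap by 0.39 (5.88%, beside 9.88%). The median was -0.09, and -0.11 without CBA 8 weeks replicate 1. Ear6, a ribonuclease of eosinophils, read 12.02, 11.69, 11.61 and 11.53 at 8 weeks and 10.91, 11.20, 10.89 and 10.49 at 18 weeks. All mature arrays were below all young ones, and the difference was -0.84 ± 0.22 (limma adjusted p = 0.139) and -0.74 ± 0.23 without the doubted array. Prg3, a granule protein, differed by -0.54 ± 0.22 (-0.58 ± 0.24 without it), and Il5ra, the receptor of the eosinophil growth factor, by -0.29 (-0.28). Epx, the eosinophil peroxidase, had overlapping arrays and differed by -0.09 ± 0.30. Without the doubted array its arrays no longer overlapped, at -0.37 ± 0.29. That is no check, since leaving out an array cannot add overlap.

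**Figure D3:**
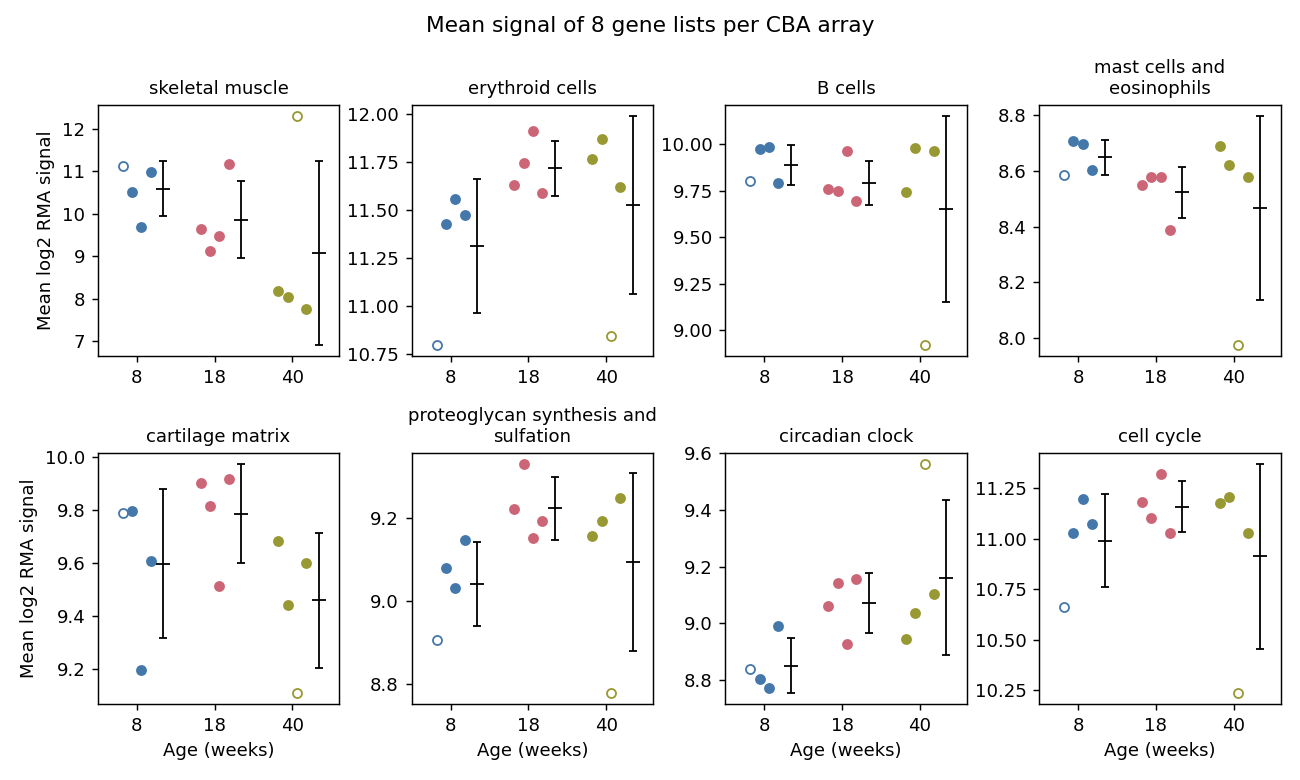
Mean log2 RMA signal (vertical axes) over 8 gene lists on each CBA array at 8, 18 and 40 weeks (horizontal axes). Points are arrays, open points mark replicate 1 at 8 weeks and replicate 3 at 40 weeks, and bars are the mean and SD; the erythroid means do not overlap between 8 and 18 weeks (10.80 to 11.56 and 11.59 to 11.91), and the muscle means do.

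Skeletal muscle genes had the median farthest from 0 of the 38 lists, -0.85 over 44 genes (-0.64 without CBA 8 weeks replicate 1). Of them 0 had arrays without overlap, beside 9.88% higher and 2.03% lower over all genes. The list's mean was 11.14, 10.53, 9.70 and 10.99 at 8 weeks and 9.64, 9.12, 9.49 and 11.18 at 18 weeks. Replicate 4 at 18 weeks was the highest of all 8 arrays, and the other 3 mature arrays were below the young ones. Casq1, the calcium store protein of muscle fibres, read 12.90, 11.88, 10.93 and 12.36 and then 10.09, 9.83, 9.98 and 12.59. Its difference was -1.39 ± 1.19 (limma adjusted p = 0.512), or -1.10 ± 1.32 without the doubted array. With the muscle mean as a covariate, the differences of Cilp (1.25), Ecrg4 (1.24), Anxa8 (1.19), Col10a1 (0.90) and Mmp13 (-0.77) kept their direction. With the erythroid mean as a second covariate they were 1.38, 1.40, 1.27, 1.20 and -0.91, and Vpreb3 went from -0.54 to -0.73. Epor went from 0.71 to 0.16, but it is itself in the erythroid list, so a fall was built in. The erythroid means did not overlap between the ages, so this covariate also carries age. The part of tissue makeup in these differences was not tested. Fat cell genes had a median of 0.21 (0.26 without the doubted array), with 17 of 21 above 0. Only Dgat2 was higher without overlap (4.76% of the list, below the 9.88% of all genes).

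Outside the lists, several further genes had large differences without overlap; they were chosen after their values were seen. Slc6a12, a carrier of betaine and GABA that cells use as an osmolyte transporter, read 9.10, 9.07, 9.10 and 9.004 at 8 weeks and 10.21, 10.22, 10.00 and 9.90 at 18 weeks. The groups were tight, with SDs of 0.04 and 0.16, and the difference was 1.01 ± 0.26 (limma adjusted p = 0.145), or 1.02 ± 0.29 without the doubted array. In a fit to these 8 arrays alone it was the only gene to pass (adjusted p = 0.0175). Car5b, a mitochondrial carbonic anhydrase, was higher by 1.15 ± 0.29, Cyp2f2, a cytochrome P450, by 1.19 ± 0.39, and Meltf, a membrane iron-binding protein, by 1.03 ± 0.37. Without the doubted array these were 1.06 ± 0.32, 1.17 ± 0.44 and 1.04 ± 0.41. Hamp and Wfdc6a had the lowest adjusted p of all genes, 0.0887. Hamp encodes hepcidin, the iron hormone of the liver, and its signal here was low: 5.75, 5.35, 5.28 and 5.55 at 8 weeks and 4.91, 4.97, 4.83 and 4.45 at 18 weeks. Wfdc6a read 7.41, 7.42, 7.25 and 7.76 and then 6.84, 6.72, 6.55 and 6.71. They differed by -0.69 ± 0.13 and -0.75 ± 0.14, and by -0.60 ± 0.13 and -0.77 ± 0.15 without the doubted array. Slc9a2, a sodium and proton exchanger, gave -0.77 ± 0.29 (-0.67 ± 0.32 without it), and Ifi214, an interferon-inducible gene, -0.66 ± 0.16 (-0.66 ± 0.18). Hamp, Wfdc6a, Slc9a2 and Ifi214 were all among the dimmest 40% of genes. Fabp7, a fatty acid binding protein, gave -0.72 ± 0.21, but -0.43 ± 0.16 without CBA 8 weeks replicate 1, which read 9.57 against 8.21 to 8.49.

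The count of genes passing depended on single arrays. Leaving out CBA 8 weeks replicate 4 let 5 genes pass (Dusp1, Calcr, Extl3, Csnk1g2 and Rhox9, at adjusted p values of 0.0365 to 0.0492). The genes without overlap, a count that can only stay or rise, went from 2374 to 3865. They were 2764 to 3386 when any other array of the 8 was left out. With any other array of the 8 left out, 0 genes passed. Besides CBA 8 weeks replicate 1, CBA 40 weeks replicate 3 stood apart from its group, with a deviation of 0.656 and a muscle mean of 12.30 against 7.76 to 8.19 on the other 40-week arrays. It is in neither age compared, but it enters the estimate of the spread. Without that array and CBA 8 weeks replicate 1, 188 genes passed (0.943%), 176 higher (0.883%) and 12 lower (0.0602%). Of the 188, 186 had no overlap between the ages and 185 had an unadjusted p under 0.05 with all arrays. Over all genes these shares were 11.9% and 17.6%. The 188 were selected on the same arrays, so both counts were largely built in and are no check. In that fit Ecrg4 passed (limma adjusted p = 0.0432), and Cilp (0.106), Anxa8 (0.0512), Tnfrsf11b (0.105), Col10a1 (0.0812) and Mmp13 (0.0949) did not. Of the listed genes Aurkb, Fosl2, Foxo3, Gata2, Slc35d1 and Tgfb1 passed as higher and Ear6 as lower. Dsc2, a cadherin of desmosomes, was among the dimmest 40% of genes. Dsc2 had the reading 6.43, 6.30, 6.49 and 6.47 at 8 weeks and 7.38, 6.98, 7.66 and 6.94 at 18 weeks. It passed at an adjusted p of 0.00959 in that fit, with the same difference of 0.82 with all arrays and without the doubted one. Other genes that passed, such as Khsrp, an RNA-binding protein, were low on the doubted array: 8.82, 9.69, 9.98 and 9.95 and then 10.40, 10.54, 10.39 and 10.39. Khsrp differed by 0.82 ± 0.23 with that array and by 0.56 ± 0.21 without it.

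Str/ort joints were compared over the same ages, with arrays of their own. There 10 genes passed (0.0502%), 7 higher (0.0351%) and 3 lower (0.015%), a count that was 24 without CBA 8 weeks replicate 1, 1669 without that array and CBA 40 weeks replicate 3, and 0 (without replicate 3 at 8 weeks) to 42 (without replicate 4 at 18 weeks) when 1 Str/ort array was left out. It was 5, 1, 3 and 2 without replicates 1 and 2 at 8 weeks and replicates 1 and 2 at 18 weeks. The CBA arrays and these arrays share 1 estimate of the spread. For the difference between the strains' age changes 0 genes passed (lowest limma adjusted p 0.205; 4204 genes, 21.1%, with an unadjusted p under 0.05). The cartilage matrix median was 0.07 in CBA and 0.21 in Str/ort, and the collagen median -0.12 and 0.31. The difference in Str/ort was 0.60 ± 0.41 for Cilp, 0.59 ± 0.32 for Ecrg4, 0.71 ± 0.30 for Anxa8, 0.79 ± 0.40 for Col10a1 and 0.85 ± 0.50 for Acan, none past the threshold. For these 5 genes the test of the strain difference gave adjusted p values of 0.263 to 0.972. Mmp13 was 12.38, 12.11 and 12.28 at 8 weeks and 12.49, 12.06, 12.84 and 12.24 at 18 weeks in Str/ort, a difference of 0.15 ± 0.26. The strains' changes differed by 0.82 ± 0.36 (unadjusted p = 0.033, limma adjusted p = 0.218). Dmp1 differed by 0.75 ± 0.35 in Str/ort, opposite to CBA (strain difference 1.41 ± 0.48, unadjusted p = 0.0075, adjusted p = 0.205). Per1 rose in Str/ort by 1.19 ± 0.19 (adjusted p = 0.0111), from 8.78 to 8.96 up to 9.59 to 10.52, although that adjusted p was 0.0618 to 0.122 without replicate 2 or 3 at 8 weeks or replicate 1 or 2 at 18 weeks. Its strain difference was 1.01 ± 0.25 (unadjusted p = 0.000623, adjusted p = 0.205). Of the marker lists, the erythroid median was -0.36 and the muscle median 0.87 in Str/ort, both opposite in sign to CBA. The part of this in the strain differences was not tested.

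**Figure D4:**
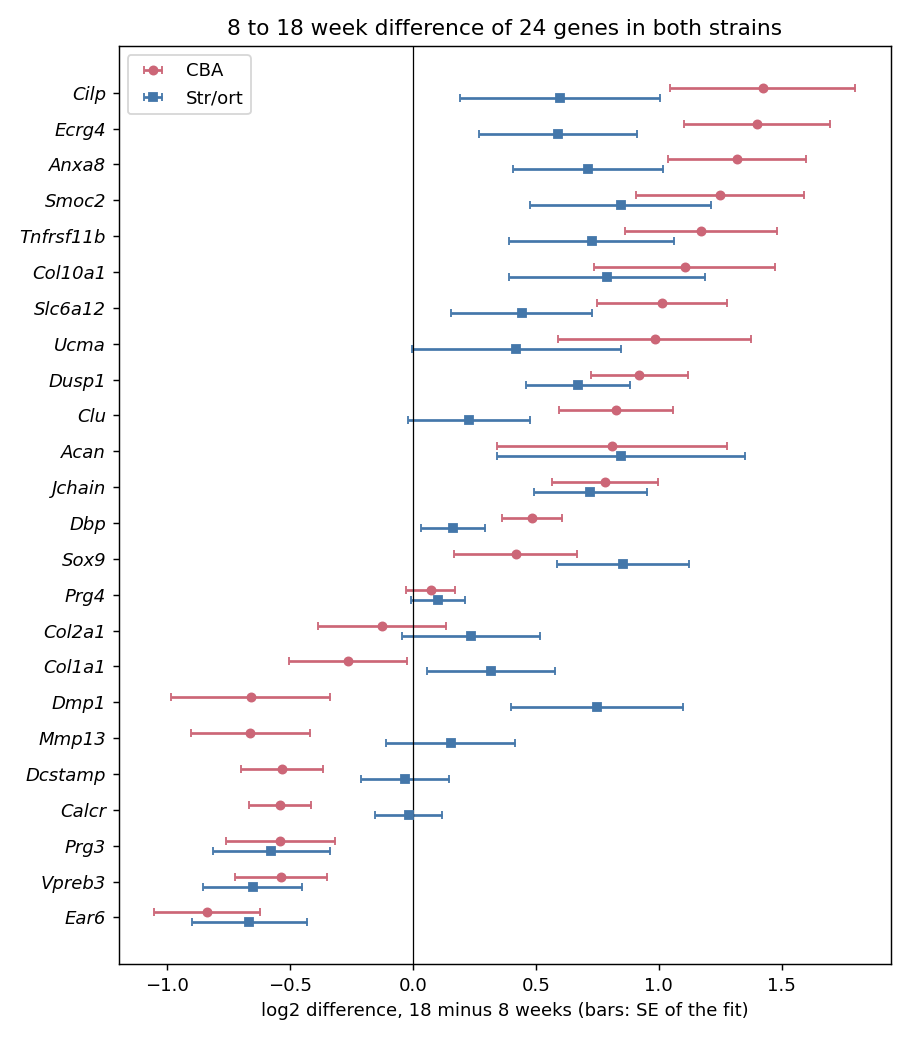
Log2 difference between 18 and 8 weeks (horizontal axis) of 24 genes in CBA (circles, 4 and 4 arrays) and Str/ort (squares, 4 and 3 arrays), with the SE of the fit as bars. Cilp is at 1.42 in CBA and 0.60 in Str/ort, and Mmp13 at -0.66 and 0.15; no difference between the strains passed the test.

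At 40 weeks Cilp and Ecrg4 stayed near their 18-week values on 3 of 4 CBA arrays, while the cartilage matrix list had a median difference of -0.34 between 40 and 18 weeks. The list's mean was 9.69, 9.44, 9.11 and 9.60 at 40 weeks, against 9.90, 9.81, 9.52 and 9.92 at 18 weeks. The comparison of 40 against 18 weeks shares the 18-week arrays, and 0 genes passed in it (lowest limma adjusted p 0.197; 767 genes, 3.85%, with an unadjusted p under 0.05). Cilp read 11.90, 11.70, 10.72 and 11.71 at 40 weeks and Ecrg4 12.48, 12.11, 11.57 and 12.51. The low value in both was replicate 3, the array with the high muscle mean. Mmp13 was spread over 11.08, 11.81, 10.42 and 12.03, above and below the 18-week arrays. Jchain went on in the same direction, with 12.60, 12.75, 11.94 and 13.02. Against 8 weeks, where 43 genes passed (0.216%), Jchain rose by 1.47 (limma adjusted p = 0.00753, and 0.0331 without CBA 8 weeks replicate 1). Vpreb3 (-0.92, adjusted p = 0.0446) and Il7r (-0.90, adjusted p = 0.0429) passed as lower with all arrays and without that array together with CBA 40 weeks replicate 3 (0.0161 and 0.0187). With 1 of 19 arrays left out (all but those of Str/ort at 40 weeks), Vpreb3 passed in 4 of 19 fits (adjusted p 0.00884 to 0.13) and Il7r in 3 (0.00926 to 0.106), so neither call held without most single arrays.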

How the data were processed

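Articular cartilage RNA of CBA and Str/ort mice was measured on 23 arrays. The authors deposited log2 signals that they had normalised with RMA (submitters' processing notes, no version stated); the number of arrays limits the precision (median SE 0.117). No scan date or batch is given, and where mice were pooled p-values measure only the spread between samples.

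Of 34760 transcript clusters 21640 carried 1 gene, and the brightest per gene was kept, leaving 19937 genes. The platform annotation gave the names; 21553 identifiers matched RefSeq GRCm38.p6 and 87 did not. The model had a mean per strain and age over all 23 arrays (limma 3.58.1, R 4.3.3, Benjamini-Hochberg, adjusted p under 0.05). A test on simulated data of the same 19937 genes recovered 55.2%, 92.5% and 97% of log2 changes of 0.5, 1 and 2 (13 of 176 calls wrong). The simulated noise was independent for each gene and array, with no outlying array and no tissue variation shared between genes. These shares therefore need not hold for the real arrays.

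Members and the 38 lists (865 genes measured) were chosen with earlier results of these data known. Named are fixed cartilage genes and the 2 members of each list with the largest difference, since the rules for called genes gave none; the 12 largest differences without overlap each way, the 8 largest passing without 2 arrays each way, and non-overlapping list members were added after values were seen. Replicate numbers did not pair the samples. Alternatives tried were quantile normalisation, a filter on dim genes, cluster handling, the variance model, array weights, a replicate block, tissue covariates and left-out arrays.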

Additional observations from a re-analysis of the deposited data

Results flagged for a closer look

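For every named gene and list mean, each age was searched for an array far from the other 3; 30 of 290 groups had one, while chance gives about 1 in 20. CBA 8 weeks replicate 1 accounted for 10 of them, replicates 2, 3 and 4 for 1, 5 and 3, and replicates 1 to 4 at 18 weeks for 2, 3, 2 and 4.

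CBA 8 weeks replicate 1 was low in the list means of erythroid cells (10.80) and cholesterol biosynthesis (9.05). It was also low in Chst12 (9.90), Htra1 (9.08), Pfkfb4 (8.58), Cxcl14 (9.87), Creld2 (9.12), Tspan33 (10.22) and Adamts5 (9.24), and high in Il7r (11.48). CBA 8 weeks replicate 3 was low in the list means of chondrocyte regulators (8.89), fibrillar and other collagens (9.51) and the Wnt pathway (8.24). It was high in Vsig4 (10.06), a receptor of resident macrophages, and in H2-DMa (9.98). CBA 8 weeks replicate 4 was high in the mean of matrix proteases and inhibitors (9.32) and in Ecrg4 (11.39), and low in Rps28 (11.92). CBA 8 weeks replicate 2 was high in Prg3 (10.17).

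At 18 weeks, replicate 4 was high in Casq1 (12.59, against 9.83 to 10.09), in the glycolysis mean (11.05) and in Slc9a2 (7.37), and low in the mean of mast cells and eosinophils (8.39). Replicate 2 was high in Vsig4 (10.52), in Khsrp (10.54) and in the mean of inflammatory mediators (8.51). Replicate 1 was high in Mmp13 (11.32, against 10.73 to 10.79) and low in Mest (9.21), and replicate 3 was low in Cxcl14 (10.30) and in S100b (8.72).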

How the results depend on the processing

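Between 18 and 8 weeks 0 genes passed with all arrays, and also after quantile normalisation, with the dimmest 40% left out, with other handling of clusters, with the intensity trend and robust settings, with tissue covariates and with the replicate block (lowest adjusted p 0.0672). Array weights gave 113. The weights were 0.088 and 0.090 for the 2 arrays that stood apart (replicate 1 at 8 weeks, replicate 3 at 40) and at least 0.685 for all others. Leaving out those 2 arrays gave 188, so these settings act largely on the same arrays. A fit to the compared groups alone gave 1, and leaving out 1 array 0 to 5. For the strain difference array weights gave 1059, leaving out those 2 arrays 281 and leaving out 1 array 0 to 1 (1 without CBA 18 weeks replicate 3). The 10 genes of Str/ort became 16 without dim genes, 3117 with array weights, 5 with the replicate block, 28 and 29 with 1 and 2 tissue covariates, 1669 without the 2 arrays, 574 in a fit to its own groups, 24 without CBA 8 weeks replicate 1, and 0 to 42 without 1 array. For CBA 40 against 18 weeks the counts were 13 with array weights, 3 without the 2 arrays and 0 to 2 without 1 array (2 without CBA 40 weeks replicate 3). The causes were not tested.

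Some named genes changed sign. Adamts5 was -0.022 after quantile normalisation, -0.069 with array weights and -0.084 without CBA 8 weeks replicate 1, alone or with the 40-week array, and with 1 array left out it ranged from -0.084 to 0.191; Col2a1 was 0.069 with array weights. With the muscle mean as a covariate Des was 0.16. With muscle and erythroid means Des was 0.21, Myf6 0.059, Slc38a4 0.53, Rsad2 -0.016, H2-DMa -0.16 and Mki67 -0.13. Some list medians changed sign there too, such as cell cycle (-0.12), osteoclasts (-0.11) and imprinted growth genes (0.14). Same-numbered arrays of the 2 ages correlated in their deviations from -0.14 to 0.59, and 3 of 8 arrays correlated best with their own number. Leaving out dim genes moved the median over all genes to 0.10. The 4 arrays of an age limit the precision, with a median SE of 0.117.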

Other observations

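Several gene groups of the joint that the text has not described showed small differences. Of 26 genes of the unfolded protein response and secretion 21 were above 0, and Xbp1 (0.32), Edem1 (0.50) and Creld2 (0.55) were higher without overlap (11.5%, near the 9.88% of all genes). Their median was 0.12, but 0.02 without CBA 8 weeks replicate 1, and Creld2 read 9.12 on that array against 10.21 to 10.41 on the other young ones. Of 22 genes of synovial fibroblasts and tendon 16 were above 0, and Fibin (0.89), Aspn (0.80) and Pi16 (0.36) were higher without overlap (13.6%, beside the same 9.88%); the median was 0.24, and 0.15 without that array. Oxidative phosphorylation genes had a median of 0.02 and, without it, -0.05, with Cycs, the gene of cytochrome c, lower by 0.45 without overlap. The 10 genes of MHC class II presentation had 8 members below 0 and 0 without overlap.

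The 1969 genes higher without overlap had a median signal over all arrays of 9.69 and the 405 lower ones of 7.37, beside 8.31 over all genes. The part of signal in these differences was not tested.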
